A study of Homo sapiens with 24 samples.

Results

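The proteasome subunit genes were described by the SWI/SNF peaks that name them. They are the genes called PSMA, PSMB, PSMC, PSMD, PSME, PSMF or PSMG followed by a number, and a peak was a member when the authors' annotation gave such a gene as its nearest transcription start site (TSS). RefSeq lists 48 protein-coding genes of these names among 20033, and 43 of the 48 were named by at least 1 peak. They were named by 82 of 51504 BRG1 peaks, 51 of 22157 BRM peaks and 13 of 6489 SNF5 peaks, which is 146 of 80150 peaks in all. BRG1 named 40 of the genes, BRM 39 and SNF5 13.

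The proteasome is the protease that degrades proteins tagged with ubiquitin. Its 20S core is a barrel of alpha and beta subunits with the proteolytic sites on the inside, and the 19S particle binds the tagged proteins, removes the ubiquitin and uses ATPases to unfold and feed them into the core. In the immunoproteasome, which is induced by interferon gamma and supplies peptides for antigen presentation, 3 of the beta subunits are replaced by PSMB8, PSMB9 and PSMB10. Subunit genes are expressed in nearly all cells and are known to be raised together by the factor NFE2L1, which acts through antioxidant response elements (ARE), when proteasome activity is low.

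The cells were RWPE1, an established human cell line from benign prostate epithelium, that received the long noncoding RNA SCHLAP1 by lentivirus and were selected in 2.5 ug/mL blasticidin. Fixation was in 0.3% formaldehyde over 30 min, stopped by 125 mM glycine, and the chromatin was cut with MNase before precipitation of BRG1 or BRM, the alternative ATPases of the SWI/SNF remodelling complex, or of SNF5, one of its core subunits. The series has 24 samples in 12 groups of 2, which also cover histone marks, inputs and control cells that received LACZ. The 3 subunits (6 samples) were profiled only in cells with SCHLAP1, so no peak described here can be compared with cells without it. The authors deposited 1 list per subunit, which gives positions and widths but no score and no value per sample. A value therefore has no replicate error, no test between conditions was possible, and the sequencing depth behind the lists is unknown. A gene absent from a list was not called, and is not shown to lack the protein.

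The labelled cell type was checked against markers. Of 8 markers of basal prostate epithelium, BRG1 named 7 (63.5% of all protein-coding genes), BRM 7 (49.6%) and SNF5 3 (19.7%). The keratin genes KRT5 and KRT15 were named in every list, KRT5 in SNF5 by a distal peak. KRT14 was named by BRG1 and BRM. Its widest peak in each was distal, which does not give the place of its narrower peaks. TP63 was named by BRG1 alone, with its widest peak in an intron. Of the luminal markers, TMPRSS2 and ACPP were named by BRG1, by promoter peaks of 1287 and 2059 bp, but not by BRM or SNF5. KLK3 and KLK2 were named by no list. BRG1 thus had promoter peaks at basal and at luminal markers. Of 7 markers of other cells BRG1 named 2, PTPRC and CD3E, by an intron and a distal peak, and BRM and SNF5 none.

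The promoters of 6 genes show what the peaks lay on, and each is given as the 250 bases before the start site, 5′ to 3′ along the gene. The sequences are those of RefSeq (GRCh38.p14), whose promoter table holds 42 of the 48 genes (without PSMA7, PSMB1, PSMB6, PSMB7, PSMD4 and PSMG3). Shown are the 3 immunoproteasome genes, PSMB5 as the counterpart of PSMB8 in the standard core, and PSMG2 and PSMA1, whose SNF5 peaks were the widest among those meeting such a promoter. Capitals mark matches on either strand to short motifs that are spelled out further on.
PSMB8 chr6:32844048-32844297, minus strand: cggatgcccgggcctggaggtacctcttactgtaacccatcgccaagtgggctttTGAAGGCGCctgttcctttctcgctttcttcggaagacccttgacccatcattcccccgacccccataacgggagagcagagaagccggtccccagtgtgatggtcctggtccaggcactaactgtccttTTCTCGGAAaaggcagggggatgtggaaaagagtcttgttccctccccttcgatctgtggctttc
PSMB9 chr6:32853942-32854191, plus strand: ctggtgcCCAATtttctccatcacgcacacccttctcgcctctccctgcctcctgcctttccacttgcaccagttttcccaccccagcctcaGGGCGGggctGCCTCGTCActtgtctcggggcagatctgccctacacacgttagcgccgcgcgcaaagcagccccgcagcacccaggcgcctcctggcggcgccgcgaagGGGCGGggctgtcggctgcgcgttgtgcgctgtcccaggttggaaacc
PSMB10 chr16:67936851-67937100, minus strand: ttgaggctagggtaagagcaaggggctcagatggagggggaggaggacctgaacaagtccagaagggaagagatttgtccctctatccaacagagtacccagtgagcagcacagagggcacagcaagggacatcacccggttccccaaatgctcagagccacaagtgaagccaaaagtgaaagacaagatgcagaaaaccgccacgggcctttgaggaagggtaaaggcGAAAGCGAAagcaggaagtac
PSMB5 chr14:23035221-23035470, minus strand: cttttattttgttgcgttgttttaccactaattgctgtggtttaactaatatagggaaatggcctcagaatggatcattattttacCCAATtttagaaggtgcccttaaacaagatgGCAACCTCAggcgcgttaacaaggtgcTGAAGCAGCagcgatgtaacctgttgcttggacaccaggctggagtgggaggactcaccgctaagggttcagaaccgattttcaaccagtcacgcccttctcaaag
PSMG2 chr18:12702792-12703041, plus strand: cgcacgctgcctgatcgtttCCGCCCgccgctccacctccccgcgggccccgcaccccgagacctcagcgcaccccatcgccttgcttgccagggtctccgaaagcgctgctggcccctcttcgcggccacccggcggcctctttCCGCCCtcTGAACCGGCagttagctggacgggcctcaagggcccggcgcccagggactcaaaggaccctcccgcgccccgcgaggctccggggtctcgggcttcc
PSMA1 chr11:14520387-14520636, minus strand: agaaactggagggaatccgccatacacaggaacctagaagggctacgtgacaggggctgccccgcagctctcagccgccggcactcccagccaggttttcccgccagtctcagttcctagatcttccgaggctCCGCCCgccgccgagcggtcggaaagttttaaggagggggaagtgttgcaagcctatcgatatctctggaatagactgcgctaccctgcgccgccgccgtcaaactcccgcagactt

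In PSMB8 the capitals are an ARE core at -195 to -187 and a STAT motif at -65 to -57, counted from the start site. In PSMB9 they are a CCAAT box at -243 to -239, GC boxes at -158 to -153 and -48 to -43, and an ARE core at -148 to -140. PSMB10 holds a single match, an IRF motif at -21 to -13, where interferon regulatory factors can bind. In PSMB5 they are a CCAAT box at -164 to -160 and ARE cores at -133 to -125 and -106 to -98. PSMG2 holds GC boxes at -230 to -225 and -105 to -100 and an ARE core at -97 to -89, and PSMA1 a GC box at -117 to -112. A match is a run of letters, not a site shown to be bound.

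The 6 stretches differed in the peaks over them. BRG1 peaks covered all 250 bases in each of the 6. The choice of genes and starts by their peaks fixed part of this coverage in advance. The 250 bases before the other RefSeq start of PSMB8 lay under no peak. Those before the other start of PSMB5 were only partly under a BRG1 peak. BRM peaks covered all 250 bases in PSMB9, PSMB10, PSMG2 and PSMA1, 50 in PSMB8 and 0 in PSMB5. SNF5 peaks covered 250 bases in PSMG2, 145 in PSMA1 and 0 in the other 4.

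Most of the subunit genes were named in the lists of both ATPases. BRG1 named 83.3% of the 48 genes, where it named 63.5% of all protein-coding genes. BRM named 81.2% against 49.6%, and SNF5 27.1% against 19.7%. Every list thus named a larger share of the subunit genes than of all genes, which is a description and not a test. The lists differ in length, and among the 6489 widest peaks of each, BRG1 named 13 of the 48 genes (27.1%, with 20.6% of all protein-coding genes) and BRM 15 (31.2%, with 22.6%). The SNF5 list has 6489 peaks in all, so its count of 13 cannot change here. By promoter peaks alone BRG1 named 37 of the genes (55.6% of all protein-coding genes), BRM 39 (45.7%) and SNF5 12 (18.1%).

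Sorted by the number of lists, 12 genes were named in all 3, 25 in 2, 6 in 1 and 5 in none. All protein-coding genes were not sorted in this way, so these counts have no share to be set beside. The 12 were PSMA1, PSMA4, PSMA5, PSMA6, PSMB3 and PSMB7 of the core, PSMD1, PSMD4, PSMD7 and PSMD12 of the 19S particle, and the core chaperones PSMG2 and PSMG3. The 6 were PSMB5, PSMD6 and PSMD13 in BRG1, PSMB9 and PSME2 in BRM, and PSMD5 in SNF5. The 5 that no peak named were PSMB6, PSMA8, PSMB11, PSMD10 and PSME3.

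A peak names only 1 gene, and a subunit gene can start close to a neighbour. In the RefSeq promoter table, which does not hold every gene, 13 of the subunit genes have a gene on the other strand that starts within 1000 bp. Examples are MRPL32 at 202 bp from PSMA2, TAP1 at 488 bp from PSMB9, SIRT3 at 45 bp from PSMD13 and ACYP2 at 120 bp from PSME4. The share of all protein-coding genes with such a neighbour was not computed. Because a peak can name the neighbour, the subunit genes were also sought by position. Of the 42 with a RefSeq start, 39 had a BRG1 peak within 1000 bp of it (92.9%, and 65.1% of all protein-coding genes), 37 a BRM peak (88.1%, against 54.3%) and 12 an SNF5 peak (28.6%, against 22.1%). With the other 6 genes placed by either end of the gene, the counts were 44, 42 and 14 of 48. By position PSMB9, PSMD5, PSME2 and PSME3 gained a BRG1 peak, PSMD13, PSMD5 and PSME3 a BRM peak, and PSMD9 and PSMF1 an SNF5 peak. PSMB7 lost its SNF5 peak, which lay 41705 bp from the TSS inside the neighbouring gene NEK6. No list then placed a peak at PSMB6, PSMA8, PSMB11 or PSMD10.

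**Figure D1:**
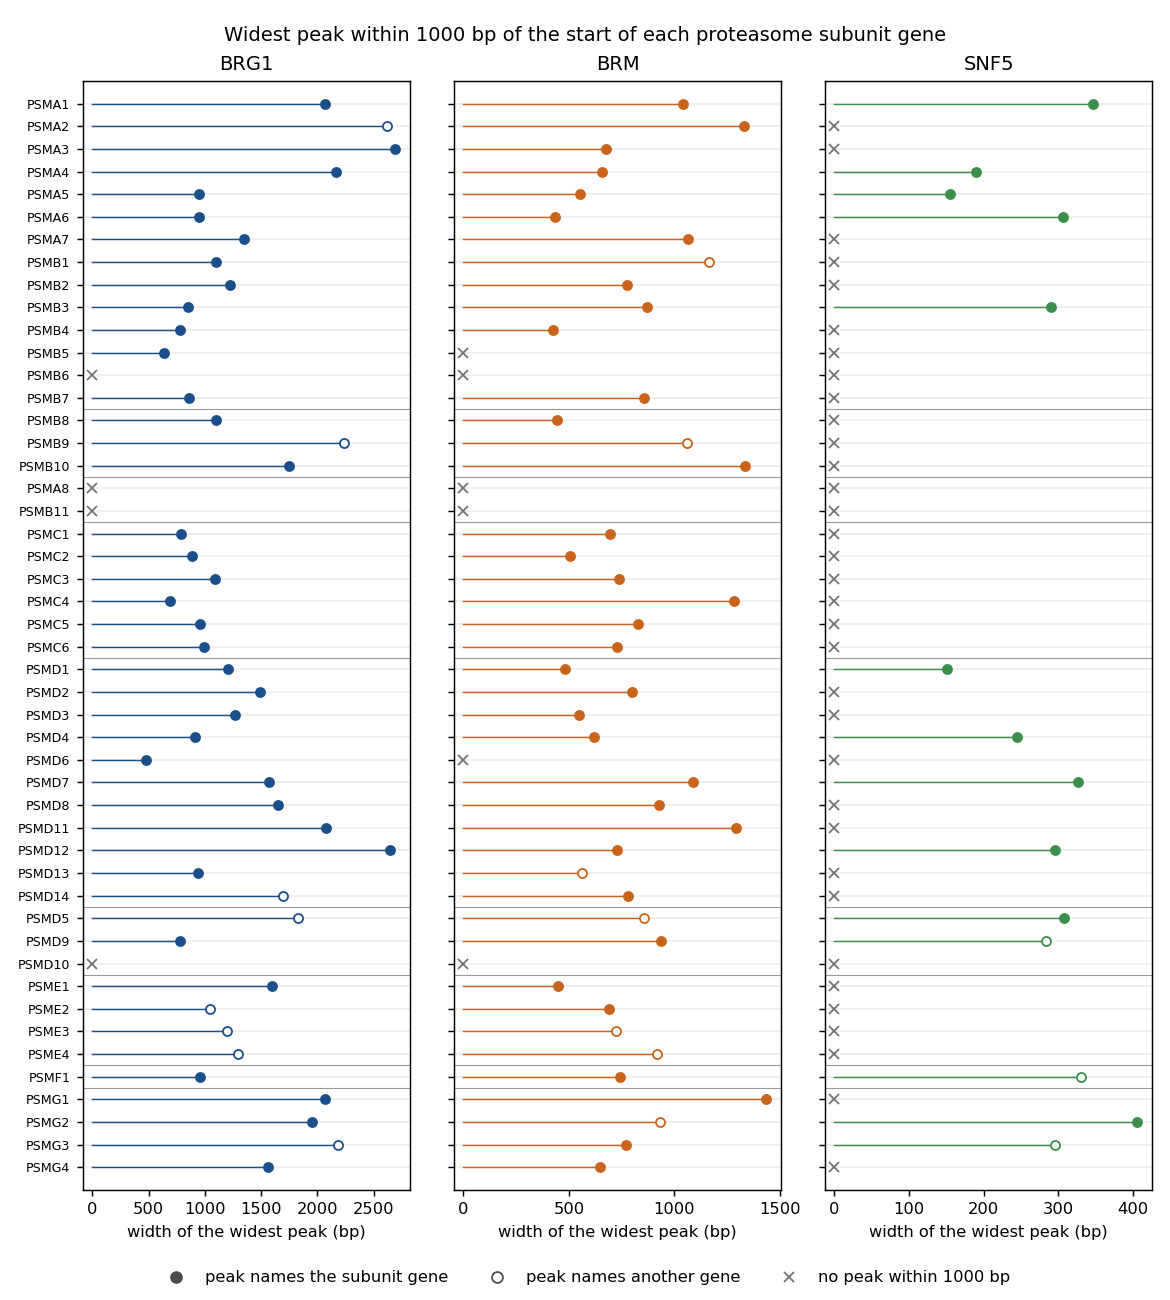
Width in bp (x axis, linear, a separate scale for each subunit) of the widest BRG1, BRM and SNF5 peak within 1000 bp of the start of each of the 48 subunit genes, or of either gene end for the 6 without a RefSeq start. Filled circles are peaks that name the gene, open circles peaks that name another gene and crosses no peak; 44 genes have a BRG1 peak, 42 a BRM peak and 14 an SNF5 peak.

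The start site itself lay under a BRG1 peak in 36 of the 42 genes (53.5% of all protein-coding genes), under a BRM peak in 33 (41.8%) and under an SNF5 peak in 7 (8.97%). Taking for each gene the peak nearest its start, the middle of the BRG1 peak lay a median of 129 bp into the gene (from -704 to 1080 bp, 39 genes) and was downstream of the start in 27. For BRM the median was 69 bp (from -692 to 396 bp, 37 genes), with 25 downstream. For SNF5 it was 8 bp (from -820 to 213 bp, 12 genes), with 6 downstream. The BRG1 and BRM peaks thus reached mostly across the start and into the gene. At PSMB3, the low end of the range for BRM and SNF5, the peaks lay upstream of the start.

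**Figure D2:**
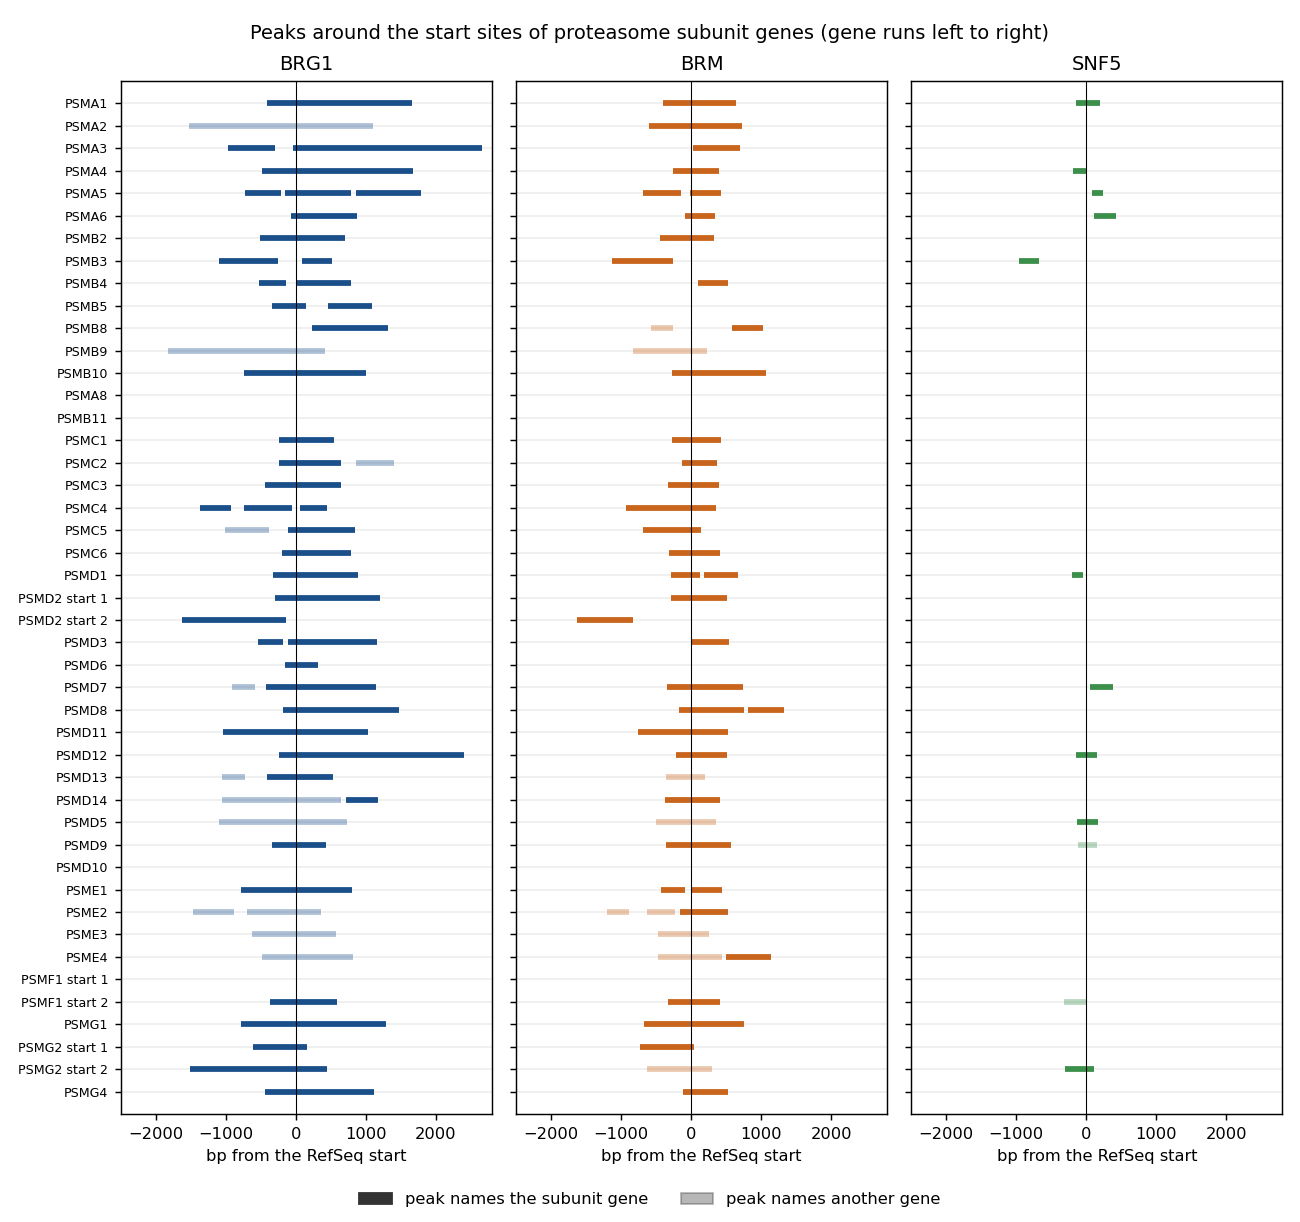
Extent in bp from the start site (x axis, with the gene running left to right) of each BRG1, BRM and SNF5 peak within 1000 bp of the 42 genes with a RefSeq start, where starts over 1000 bp apart have a line each. Closer starts share a line, drawn from the most upstream of them. Dark bars name the subunit gene and pale bars another gene. Most BRG1 and BRM bars cross the drawn start. Counting every RefSeq start, one lies under a BRG1 peak in 36 genes, a BRM peak in 33 and an SNF5 peak in 7. PSMB8 is counted by its later start, so the bars that name it lie to the right of the drawn start.

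The alpha subunits of the core, which form its outer rings and the gate, were named by BRG1 and BRM in all 7 cases and by SNF5 in 4. For this and the following classes, the shares of all protein-coding genes named were 63.5% for BRG1, 49.6% for BRM and 19.7% for SNF5. Their BRG1 promoter peaks had a median width of 946 bp, with 928 bp over all subunit genes, and their BRG1 peaks of any place 757 bp, with 816 bp. The median of each gene's widest BRG1 peak, wherever it lay, was 2072 bp, with 1201 bp over all subunit genes, and that of PSMA6 counts here although it lay far from the gene. PSMA3 had the widest BRG1 peak of any member, 2692 bp, which covered its start from -36 to 2655 bp and carried the intron label at a TSS distance of 1246 bp. Among the alpha genes PSMA6 came next with its distal peak of 2315 bp, and then PSMA4 with 2163 bp over its start and PSMA1 with 2072 bp. The BRG1 peaks that named PSMA2, of 332, 524 and 351 bp, lay inside the gene, while a BRG1 peak of 2621 bp over its start named MRPL32 and a BRM peak of 1330 bp there named PSMA2. SNF5 peaks, whose median over the whole list was 212 bp, were 346 bp wide for PSMA1, 307 bp for PSMA6, 190 bp for PSMA4 and 155 bp for PSMA5.

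Among the beta subunits of the standard core, which include its proteolytic sites, BRG1 named 6 of 7, BRM 5 and SNF5 2. The 3 proteolytic ones differed from each other. PSMB5, the chymotrypsin-like subunit, had BRG1 peaks of 635 and 480 bp at its promoter (chr14:23034130-23034764 and chr14:23035079-23035558) and no BRM or SNF5 peak. PSMB6, the caspase-like subunit, had no peak in any list, whether by name or by position. PSMB7, the trypsin-like subunit, was named by 8 BRG1 peaks, of which only that of 857 bp was at its promoter (chr9:124414677-124415533), and by 4 BRM peaks, of 856 bp at the promoter and 537, 1055 and 1235 bp in introns. Of its other 7 BRG1 peaks, 5 lay within the gene, up to 1331 bp wide, and 2 within NEK6. PSMB2, a structural beta subunit, had the widest promoter peak of the class for BRG1, 1222 bp, with 776 bp for BRM and no SNF5 peak.

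The 3 genes of the immunoproteasome all had a BRG1 and a BRM peak within 1000 bp of their start, and none had an SNF5 peak there. PSMB8, which replaces PSMB5, had a BRG1 peak of 1095 bp (chr6:32843361-32844455) and a BRM peak of 444 bp (chr6:32843654-32844097), which both covered the later of its RefSeq starts. PSMB10, which replaces PSMB7, had a BRG1 peak of 1749 bp (chr16:67935847-67937595) and a BRM peak of 1336 bp (chr16:67935786-67937121), again over the start. PSMB9, which replaces PSMB6, was named by no BRG1 peak. Its start lay under a BRG1 peak of 2237 bp (chr6:32852370-32854606) and a BRM peak of 1059 bp (chr6:32853367-32854425) that both named TAP1, which encodes a chain of the transporter of antigenic peptides and starts 488 bp away on the other strand.

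The one peak that did name PSMB9, a BRM peak of 310 bp (chr6:32844936-32845245), spanned -9256 to -8947 bp from the PSMB9 start, just upstream of PSMB8. Its width is the lowest in the BRM list. In the same stretch of chromosome 6 lay 2 SNF5 peaks, each 151 bp wide, the lowest width in the SNF5 list. One lay at the promoter of TAP2, which encodes the partner chain, and one lay in TAP1, at -1403 to -1253 bp from the PSMB9 start. PSMB9 and PSMB6 thus differed in the lists, with BRG1 and BRM peaks over the start of the first and none at the second. PSMB8 differed from PSMB5 in having a BRM peak, and PSMB10 and PSMB7 both had a BRG1 and a BRM peak at the promoter. With 1 list per subunit these differences have no error to be set against.

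**Figure D3:**
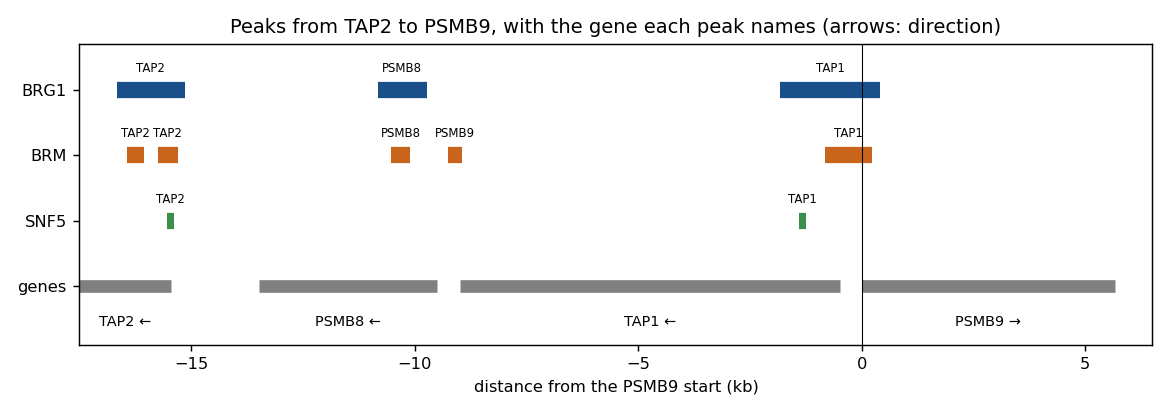
Peaks of the 3 lists between TAP2 and PSMB9 on chromosome 6, drawn by distance from the PSMB9 start in kb (x axis) and labelled with the gene each peak names; grey bars are the genes and arrows their direction. The BRG1 peak of 2237 bp and the BRM peak of 1059 bp over the PSMB9 start name TAP1, and the BRM peak that names PSMB9 lies beside PSMB8.

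The 2 core subunits made in particular tissues, PSMA8 of the testis and PSMB11 of the thymus, had no peak in any of the lists, by name or by position.

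The 6 ATPases of the 19S particle, which form the unfolding ring, gave the most even picture. BRG1 and BRM named each of PSMC1 to PSMC6, with a promoter peak in every case, and SNF5 named none. Their widest BRG1 peaks ran from 693 to 1283 bp with a median of 975 bp, and their widest BRM peaks from 507 to 1284 bp with a median of 731 bp. The 3 widest for BRG1 were PSMC2 with 1283 bp, PSMC3 with 1091 bp and PSMC6 with 995 bp. The PSMC2 peak of 1283 bp did not lie at the RefSeq start but at -3971 to -2689 bp from it, over DNAJC2 and PMPCB, and the peak over the start was 886 bp wide. At PSMC4 a single BRM peak of 1284 bp met 3 separate BRG1 peaks of 453, 693 and 394 bp.

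Of the 11 other 19S subunits, which bind and deubiquitinate the substrate or form the lid, BRG1 named all 11, BRM 9 and SNF5 4. The widest BRG1 peaks were 2642 bp at PSMD12, 2075 bp at PSMD11 and 1647 bp at PSMD8, all over the start of these structural subunits. The PSMD12 peak spanned -240 to 2401 bp and was annotated as intron. SNF5 peaks stood at PSMD7 (327 bp), PSMD12 (296 bp), the ubiquitin receptor PSMD4 (245 bp) and the scaffold PSMD1 (151 bp, the lowest width in the SNF5 list). PSMD6, a lid subunit, had a BRG1 peak of 480 bp and no other. PSMD14, the deubiquitinase of the lid, was named by BRG1 peaks of 463 and 547 bp inside the gene, whereas the BRG1 peak over its start, 1698 bp wide, named AC009299.3.

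Of the 3 chaperones of 19S assembly, each list named 1. PSMD9 was named by BRG1 (777 bp) and BRM (936 bp), and an SNF5 peak of 284 bp over its start named AC069503.2. PSMD5 was named by an SNF5 peak of 308 bp, and its start lay under a BRG1 peak of 1828 bp and a BRM peak of 857 bp that named its antisense gene PSMD5-AS1. PSMD10 (gankyrin) had no peak in any list. By position, then, 2 of the 3 had a peak of all 3 subunits.

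The chaperones that assemble the core, PSMG1 to PSMG4, were all named by BRG1 and by BRM, and 2 of them by SNF5. The median of their widest BRG1 peaks was 1754 bp. PSMG1 had a BRG1 peak of 2069 bp and a BRM peak of 1435 bp, the widest BRM peak of any member, and no SNF5 peak. PSMG2 has starts far apart, with BRG1 peaks of 775 and 1950 bp, and at the later start the widest SNF5 peak of any member, 406 bp, which lay across the PSMG2 sequence printed above. CEP76 has starts 265 and 319 bp from this later start on the other strand. The BRM peak over the later start, 932 bp wide, named CEP76. PSMG4 had a BRG1 peak of 1559 bp and a BRM peak of 647 bp. The BRG1 peak naming PSMG3, 1195 bp in an exon, lay 2581 bp from the TSS, while a BRG1 peak of 2187 bp at the other end of the gene named PSMG3-AS1.

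The activators, which open the core without the 19S particle, were PSME1 and PSME2 (induced by interferon gamma), the nuclear PSME3 and PSME4. BRG1 named 2 of the 4, BRM 3 and SNF5 none, and by position all 4 had a BRG1 and a BRM peak over the start. At PSME1 the BRG1 peak of 1598 bp met BRM peaks of 337 and 447 bp. At PSME2 the BRG1 peak over the start, 1048 bp wide, named RNF31 and the BRM peak of 689 bp named PSME2. At PSME3 both peaks, of 1198 bp for BRG1 and 725 bp for BRM, named BECN1. PSME4 was named by 5 BRG1 peaks in its introns, up to 903 bp wide, and the BRG1 peak over its start, 1298 bp wide, named ACYP2. The inhibitor PSMF1 had a BRG1 peak of 953 bp and a BRM peak of 743 bp, and an SNF5 peak of 331 bp over its start named AL031665.2.

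**Figure D4:**
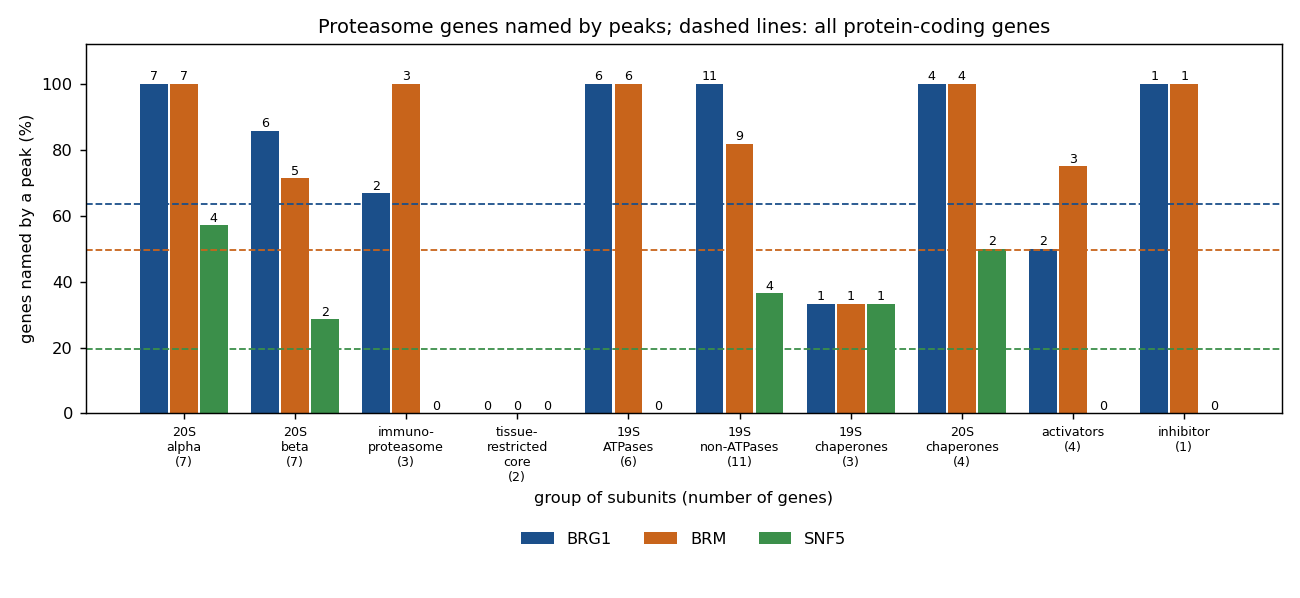
Share of the genes of each class named by a peak (y axis, percent), with the number named above each bar and the size of the class below it; dashed lines mark the share of all protein-coding genes named by BRG1 (63.5%), BRM (49.6%) and SNF5 (19.7%). SNF5 names 4 of 7 alpha subunits and 0 of 6 ATPases, 0 of 3 immunoproteasome genes and 0 of 4 activators. In classes this small a count of 0 cannot be set apart from 19.7%.

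The core, the 19S particle and the immunoproteasome differed less in BRG1 and BRM than in SNF5. BRG1 named 13 of 14 core genes, 17 of 17 genes of the 19S particle and 2 of 3 immunoproteasome genes, and BRM 12, 15 and 3. SNF5 named 6 core genes, 4 of the 19S particle and no immunoproteasome gene. With only 3 genes in the immunoproteasome, its count of 0 cannot be set apart from the 19.7% of all genes that SNF5 named. None of these differences between classes was tested.

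Where BRG1 had a promoter peak at a subunit gene, BRM mostly had one too. Of the 37 genes with a BRG1 promoter peak 34 had one for BRM (91.9%, against 75.9% of all such genes), and 9 had one for SNF5 (24.3%, against 29.7%). By single peaks, 45 of 82 BRG1 member peaks met a BRM peak by at least 1 bp (54.9%, exact Clopper-Pearson 95% interval 43.5 to 65.9), compared with 35.7% of all BRG1 peaks. At promoters it was 37 of 50 (74%, interval 59.7 to 85.4), with 61.6% for all BRG1 promoter peaks. Of the member peaks without the promoter label it was 8 of 32 (25%, interval 11.5 to 43.4). The share over all BRG1 peaks without that label was not computed. The 8 include the intron peaks that cover the starts of PSMA3 and PSMD12. SNF5 met 13 of the 82 (15.9%, interval 8.72 to 25.6), with 9.58% for all, and at promoters 11 of 50 (22%, with 21.2% for all). In the other direction 48 of 51 BRM member peaks met a BRG1 peak (94.1%, with 92.2% for all), and 43 of 44 at promoters (97.7%, with 94.8% for all). SNF5 peaks met 13 of the 51 BRM peaks (25.5%, with 21.9% for all) and 12 of the 44 at promoters (27.3%, with 29.3% for all). Each of the 13 SNF5 member peaks met both a BRG1 and a BRM peak (96.1% and 91.9% for all), as did the 12 at promoters (98.4% and 95.0% for all). The intervals cover counting error only.

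The BRG1 peaks of the subunit genes lay more often at promoters than BRG1 peaks in general. The annotation put 50 of 82 there (61.0%, interval 49.6 to 71.6, with 37.3% of all BRG1 peaks), 25 in introns, 6 in distal regions and 1 in an exon. For BRM it was 44 of 51 (86.3%, interval 73.7 to 94.3, with 62.8% of all) and for SNF5 12 of 13 (92.3%, interval 64.0 to 99.8, with 81.3% of all). A peak counts as promoter by the distance of its middle from the TSS, so peaks close to the limit fall on either side. The farthest BRG1 promoter peak was that of PSMC4 at 984 bp and the nearest other peak that of PSMA5 at 999 bp.

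The widths of the member peaks were close to those of other promoter peaks for BRG1 and BRM. The median promoter peak of BRG1 was 928 bp wide at members and 876 bp in all, that of BRM 710 and 638 bp, and that of SNF5 293 and 218 bp. With 1 peak per gene, the widest at the promoter, the median for the members was 1091 bp against 1134 bp over all genes so named for BRG1, 735 against 741 bp for BRM and 293 against 237 bp for SNF5. No member approached the widest peaks of the lists, which reached 13194 bp in BRG1 and 10014 bp in BRM, with 1737 bp in SNF5, since the widest of the members were 2692, 1435 and 406 bp. No member was named by more than 1 SNF5 peak.

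Of the 32 BRG1 member peaks without the promoter label, PSMB7, PSMA6 and PSME4 held 7, 7 and 5. Not all of the 32 lay away from a start, since the intron peaks of PSMA3 and PSMD12 covered theirs. How such peaks are spread over other genes was not computed. The 5 distal peaks that named PSMA6 lay within 6604 bp (chr14:35331370-35337973), which begins 13877 bp after the end of PSMA6 and ends 63540 bp before NFKBIA, the gene of an inhibitor of NF-kB. They were 2315, 386, 867, 846 and 484 bp wide, and 3 BRM peaks of 1102, 823 and 321 bp met 3 of them, while SNF5 had none there. The peaks name PSMA6 because it is the nearest TSS in the annotation, and which gene they act on is not measured.

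The promoter windows of the members, 300 bases from 250 before to 50 after each start, were searched for short motifs on both strands. There were 51 windows of 42 genes, set beside 22198 windows of all protein-coding genes, and windows of neighbouring starts of a gene overlap. The ARE core (TGANNNNGC) stood in 32 member windows, 62.7% against 41.9% of all, and the full ARE (TGACTCAGC) in 0 against 0.491%. The ETS motif CCGGAAG stood in 15 (29.4% against 12.8%), the GC box GGGCGG in 35 (68.6% against 56.3%) and CCAAT in 20 (39.2% against 34.7%). The ETS windows included those of PSMC1, PSMC2 and PSMC6, of 6 of the 19S subunits without ATPase activity, of PSMA6 in the standard core and of the testis subunit PSMA8. Of the 14 genes of the standard core, 4 had no window to search.

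The IRF motif GAAANNGAA stood in 8 windows (15.7% against 7.10%), of PSMA4, PSMB4, PSMB8, PSMB10, PSMC2, PSME1, PSME2 and PSMG4. That list holds 2 of the 3 immunoproteasome genes and both activators induced by interferon gamma. In PSMB8 the match does not lie within the 250 bases printed above. The STAT motif TTCNNNGAA also stood in 8 (15.7% against 6.79%), including PSMB8 and PSMB5. The AP-1 motif TGANTCA (5.88% against 6.15%), which can overlap an ARE core, and TATAAA (9.80% against 9.47%) were at the share of all promoters, GCATGCGC of the factor NRF1 (nuclear respiratory factor, not NFE2L1) and AAGATGGCG of YY1 were each in 3 windows (3.74% and 2.41% of all), and neither GGGANTTTC of NF-kB nor TGACGTCA (CRE) was found (1.18% and 2.26% of all). The median GC content was 62% in the member windows and 62.3% in all. None of these shares was tested, and a missing match says only that the letters are not in the window.

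**Figure D5:**
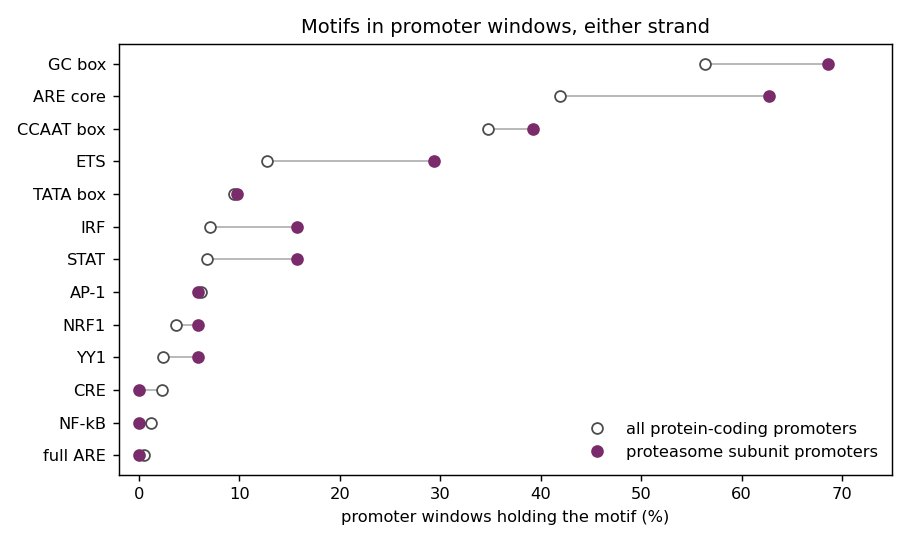
Share of promoter windows that hold each motif on either strand (x axis, percent), for the 51 windows of proteasome subunit genes (filled) and for all 22198 protein-coding windows (open). The ARE core stands in 62.7% against 41.9% and the ETS motif in 29.4% against 12.8%, while the TATA box and AP-1 shares nearly coincide.

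Genes that work with the proteasome but do not bear these names were set beside the same shares of all genes. Of 12 partners, such as the ubiquitin receptor ADRM1 and the assembly factor POMP, BRG1 named 10 (83.3%), BRM 9 (75%) and SNF5 8 (66.7%), beside 63.5%, 49.6% and 19.7% of all protein-coding genes. PAAF1 and UBE3C were named by none. By position PAAF1 had a BRG1 and a BRM peak at its start that named another gene, and UBE3C had no peak there. ADRM1 had far wider peaks than any member, 7018 bp for BRG1 and 6919 bp for BRM, with 6 SNF5 peaks. Of 7 genes that control transcription of the subunits BRG1 named 7, BRM 5 (71.4%) and SNF5 4 (57.1%), with BRG1 peaks of 4174 bp at NFE2L1 and 3899 bp at NFE2L2. The BRG1 peak that named NGLY1, 346 bp wide, lay in an intron 5219 bp from the TSS. By position, of the 6 with a RefSeq start, 5 had a BRG1 peak, 4 a BRM peak and 2 an SNF5 peak. The shares of all protein-coding genes by position were 65.1%, 54.3% and 22.1%. Of 15 genes of ubiquitin and unfolding the counts were 14, 14 and 9 (93.3%, 93.3% and 60%). Of 15 of antigen processing they were 14, 14 and 7 (93.3%, 93.3% and 46.7%), where HLA-B alone was named by none. B2M, the light chain of class I molecules, had a BRG1 peak of 2002 bp and a BRM peak of 1552 bp and, like PSMB8 and PSMB10, no SNF5 peak.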

How the data were processed

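ChIP-seq libraries were made by the authors, and the submitters' processing notes name, with no role for any, hg38, deepTools 2.5.2, MACS2, SAMtools and Bowtie2. The sources used here do not say whether replicates were pooled, nor the threshold, input and filter of the peak calls. The authors' lists hold, per the file headers, positions and other values in bp: start, end, width, annotation, nearest TSS and distance to it. Depth is unknown, since no count or score is listed.

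The members were matched by name and classed by known role. The members and lists were chosen with earlier results of these data known. Full values were given for the immunoproteasome genes and their counterparts, PSMA8 and PSMB11, up to 3 members of each class with the widest BRG1 peak, members with a wider peak outside the promoter and members without a peak; other named genes were chosen after their values were seen. Names matched RefSeq (GRCh38.p14) for 81.3% (BRG1), 86.9% (BRM) and 90.4% (SNF5) of the peaks. Overlaps needed 1 bp and were checked with bedtools 2.31.1. Intervals are exact Clopper-Pearson at 95% and treat peaks as independent, which they are not strictly. The tools were matplotlib 3.10.9, scipy 1.17.1, pandas 2.3.3 and numpy 2.4.6 in Python 3.11.15. The overlap and matching routine was tested on simulated data, with 0 wrong of 12200. The alternatives were position in place of names, promoter peaks only, other distances and overlaps, wider peaks, equal numbers of peaks and 1 peak per gene. Inputs and histone marks were not analysed here. A luminal marker of the list used is not reported here.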

Additional observations from a re-analysis of the deposited data

How the results depend on the processing

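Of 93 values recomputed under other settings, 76 stayed within a limit and 17 moved beyond it. The limit was 1.5 times for a count of genes, the exact 95% binomial interval for a share and the 95% interval of the median for a width. Some of the 76 values could not move. At equal numbers of peaks 5 of 15 values stayed, all of them SNF5 values taken again from the whole list. A count of 0, as for SNF5 at the immunoproteasome genes, cannot rise when peaks are only left out. With only the 6489 widest peaks of each list, so that the lists are of equal length, BRG1 named 13 subunit genes (4 core, 1 immunoproteasome, 5 regulatory and 3 assembly) and BRM 15 (6, 1, 6 and 2). They then named 20.6% and 22.6% of all protein-coding genes. The SNF5 list has 6489 peaks in all, so its count of 13 was fixed. This setting changes both the number and the width of the peaks kept. With the wider 50% of each list, BRM named 1 immunoproteasome gene (33.3%, with 34.3% of all protein-coding genes). SNF5 then named 3 core genes (21.4%, with 11.4% of all). In that setting 72.3% of BRG1 member peaks met a BRM peak, and the share over all BRG1 peaks was not computed. With the widest peak of each gene alone, 80% of BRG1 and 94.9% of BRM member peaks were at promoters and the median BRG1 width was 1201 bp. With 3000 bp from the TSS as the limit in place of the promoter label, 74.4% of BRG1 member peaks lay near a TSS. Counting by position, by promoter peaks only or by an overlap of 50% moved no value beyond its limit. No paired analysis was possible because each subunit has 1 list and no value per replicate, and for the same reason no replicate could be left out. The depth of the libraries, which limits how many peaks are called and how wide they are, is unknown.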
